A study of Drosophila melanogaster with 2 samples.

Results

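The regions described here are the Stat92E-GFP peaks inside introns of protein-coding genes in Drosophila melanogaster embryos. They were taken from the authors' IDR-thresholded peak list (IDR is the irreproducible discovery rate, a measure of how well replicates rank the same peaks). A peak was kept when its summit, the position of highest signal, lay more than 1 kb from every protein-coding transcription start site (TSS), outside every protein-coding exon and untranslated region, and inside an intron of a protein-coding gene. This left 746 intron peaks, 20.7% of the 3601 peaks on the 6 chromosome arms. The others were 2358 promoter peaks within 1 kb of a TSS, 466 intergenic peaks and 31 exon peaks. The study is a ChIP-seq profile of 1 group in 2 biological replicates, numbered 1 and 3 in the labels. The group was whole embryos of both sexes, pooled, aged 0 to 12 h, from a transgenic line of strain Stat92E-GFP that stably expresses Stat92E with eGFP at its C-terminus. Chromatin was sonicated to 200 to 800 bp. The antibody label names Stat92E, whereas the description says that the precipitation was made against GFP. Whole embryos mix all tissues and many stages, so a peak does not say in which cells the factor was bound, and the tagged protein was present beside whatever Stat92E the line otherwise makes. No second genotype, untagged line or input was analysed here, so the intron peaks were compared with neighbouring sequence and with the other peak classes. Whether a peak list with no untagged line holds unspecific signal was not tested.

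Stat92E is the single STAT transcription factor of Drosophila. In the JAK/STAT pathway, Unpaired ligands bind the receptor Domeless, the kinase Hopscotch phosphorylates Stat92E, and dimers of Stat92E enter the nucleus and bind sites built from the half-sites TTC and GAA. In embryos the pathway is known for roles in segmentation, the trachea, the posterior spiracles and the gut. Introns, above all the long ones of developmental genes, often hold enhancers, and those of Socs36E have been used as reporters of the pathway.

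The sequences below show what the sites under intron peaks looked like. They are read on the plus strand of the RefSeq copy of Release 6 (dm6), with the 10 bases on either side of the site, and capitals mark the site. The first 8 hold the full palindrome TTCCNGGAA, where N is any base, within 50 bp of the summit of an intron peak.
RhoU (chrX:10115764-10115792): attttttcaaTTCCTGGAAtttaatcaag
melt (chr3L:7137893-7137921): ctgtcccgatTTCCAGGAAgcaaatgtct
E2f1 (chr3R:21641910-21641938): attcacggaaTTCCTGGAAatttgccgat
grn (chr3R:8160724-8160752): gagtttctggTTCCCGGAAtcgtattatg
tup (chr2L:18870058-18870086): tttgtcaattTTCCTGGAAgctgttgtgg
Dad (chr3R:17062028-17062056): gggaacacaaTTCCAGGAAttgtaacgac
Socs36E (chr2L:18147884-18147912): ggcggaaaaaTTCCTGGAAaatatgcaca
Diap1 (chr3L:16044268-16044296): gcatcgaaaaTTCCGGGAAttccgaattg
The next 3 hold the 3-base-spacer site TTCNNNGAA without the full palindrome, and lie under some of the strongest intron peaks.
CG5953 (chr2L:16526248-16526276): cactgcgcatTTCTAAGAAaaatttatgc
FER (chr3R:9378941-9378969): tggtccacgaTTCTCGGAAttaaaggaac
Dtg (chr3R:12649575-12649603): aattccgattTTCCACGAAacgagttgca
The last 3 hold the 4-base-spacer site, in which 4 bases separate TTC from GAA, in genes of a receptor, a polarity protein and the JAK/STAT receptor.
tkv (chr2L:5239624-5239653): tttcgagtatTTCGTGTGAAaaacgctgga
crb (chr3R:24297629-24297658): ctgtacggctTTCGTTTGAAtttccgccct
dome (chrX:19681551-19681580): acatcggcacTTCGGACGAAttgttaaaaa

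The choice of sites limits their distance from the summit to 50 bp. In tup, which encodes a LIM-homeodomain factor, the palindrome lay 3 bp from the summit in intron 1. In E2f1, which encodes a cell cycle transcription factor, a further 3-base-spacer site ran from 21641911 to 21641919 and ended on the base before the palindrome began at 21641920. The site of grn, a GATA factor gene, lay 25 bp from its summit, and that of Dad, the inhibitory Smad of the Dpp pathway, lay 26 bp away. The tkv site lay 5 bp and the dome site 26 bp from the summit.

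STAT sites were more frequent at intron summits than in windows 1 kb away. The 3-base-spacer site was within 50 bp of 113 of 746 summits (15.1%, 95% exact binomial interval 12.6 to 17.9), against 30 control windows (4.02%, 2.73 to 5.69) centred 1 kb towards the 3′ side of the host gene, whatever lay there. Of the control windows, 642 (86.1%) lay wholly in the same intron as the summit. In the 613 pairs whose control was centred in open intron sequence, the 3-base-spacer site was at 92 summits and in 29 controls (adjusted p = 1.09e-07, exact McNemar test). With control windows 2 kb away it was in 15 of them, a ratio of summit to control windows of 7.53, beside 3.77 at 1 kb. The 4-base-spacer site was at 78 summits (10.5%, 8.35 to 12.9) and in 28 control windows (3.75%, 2.51 to 5.38). The full palindrome, a subset of the 3-base-spacer site, was at 21 summits (2.82%, 1.75 to 4.27) and in 3 control windows (0.402%), against 1 with controls on the 5′ side and 2 with controls 2 kb away. Among pairs in which only 1 of the 2 windows held the site, the ratio of summits to controls was 4.07 for the 3-base spacer (interval 2.65 to 6.46, adjusted p = 1.62e-11), 2.85 for the 4-base spacer (1.82 to 4.6, adjusted p = 1.79e-05) and 7 for the palindrome (2.09 to 36.7, adjusted p = 0.00342; exact McNemar tests, two-sided, Benjamini-Hochberg over 37 motifs). Over all 463875 windows of the same length that tile the intron sequence open to the rule, the shares were 3.08%, 3.16% and 0.155%. Within 25 bp of the centre the palindrome was in 11 summit and 2 control windows and did not pass (adjusted p = 0.166, exact McNemar test). These p-values and intervals treat peaks as independent and cover the peak set of 2 replicates, not variation among embryos.

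Of the 37 motifs searched, 5 (13.5%) passed that test, all higher at the summits. Beside the 3 STAT patterns these were the motifs of GATA and Forkhead factors, families with members that pattern the gut, the blood and the trachea. The GATA motif (GATA with A or T before it and A or G after it) was at 175 summits (23.5%) and in 129 control windows (17.3%), a ratio of discordant pairs of 1.46 (1.13 to 1.91, adjusted p = 0.0287, exact McNemar test). The Forkhead motif (TTTAC after TA or after TG) was at 68 summits (9.12%) and in 35 control windows (4.69%), a ratio of 2.03 (1.31 to 3.21, adjusted p = 0.00971, exact McNemar test). Over all windows of the open intron sequence the shares were 17.4% for GATA and 4.85% for Forkhead. The GATA call was lost under some settings and the Forkhead call under most. At 2 kb from a TSS neither passed (adjusted p = 0.138 for GATA and 0.114 for Forkhead, exact McNemar tests). Within 25 bp GATA passed and Forkhead did not (adjusted p = 0.46, exact McNemar test). As a ratio of summit to control windows, GATA was at 1.36 and had 1.2 without replicate 1 (adjusted p = 0.204) and 1.18 with control windows whose centre also lay in open intron sequence (adjusted p = 0.446, exact McNemar tests). Forkhead was at 1.94 and had 1.64 in both of these settings (adjusted p = 0.114 and 0.158), 1.58 with controls on the 5′ side (adjusted p = 0.109) and 1.51 without replicate 3 (adjusted p = 0.252, exact McNemar tests). In the stronger 50% of peaks neither passed, at ratios of 1.44 for GATA (adjusted p = 0.123) and 1.94 for Forkhead (adjusted p = 0.181, exact McNemar tests). Half-sites at spacings of 0, 1, 2, 5, 6, 7 or 8 bases did not pass, though the 1-base spacer did with control windows 2 kb away. The reversed order GAANNNTTC was at 33 summits and in 18 control windows (adjusted p = 0.164, exact McNemar test). Snail was at 13 summits and in 28 control windows (adjusted p = 0.125, exact McNemar test). The Snail motif passed in the stronger 50% of peaks, within 25 bp and with control windows 2 kb away. Of all 8192 distinct 7-mers, 0 (0%) passed the same test, 319 had an unadjusted p under 0.05, and the smallest adjusted p was 0.594. Summit windows averaged 38.1% GC and control windows 41.0%, and the part of this difference in the results was not tested for the control comparison. The comparisons with other peak classes given below were also stratified into 5 classes of GC, within which GC still varied. For the 3-base spacer the odds ratios were then 3.35 against promoter and 0.954 against intergenic peaks.

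**Figure D1:**
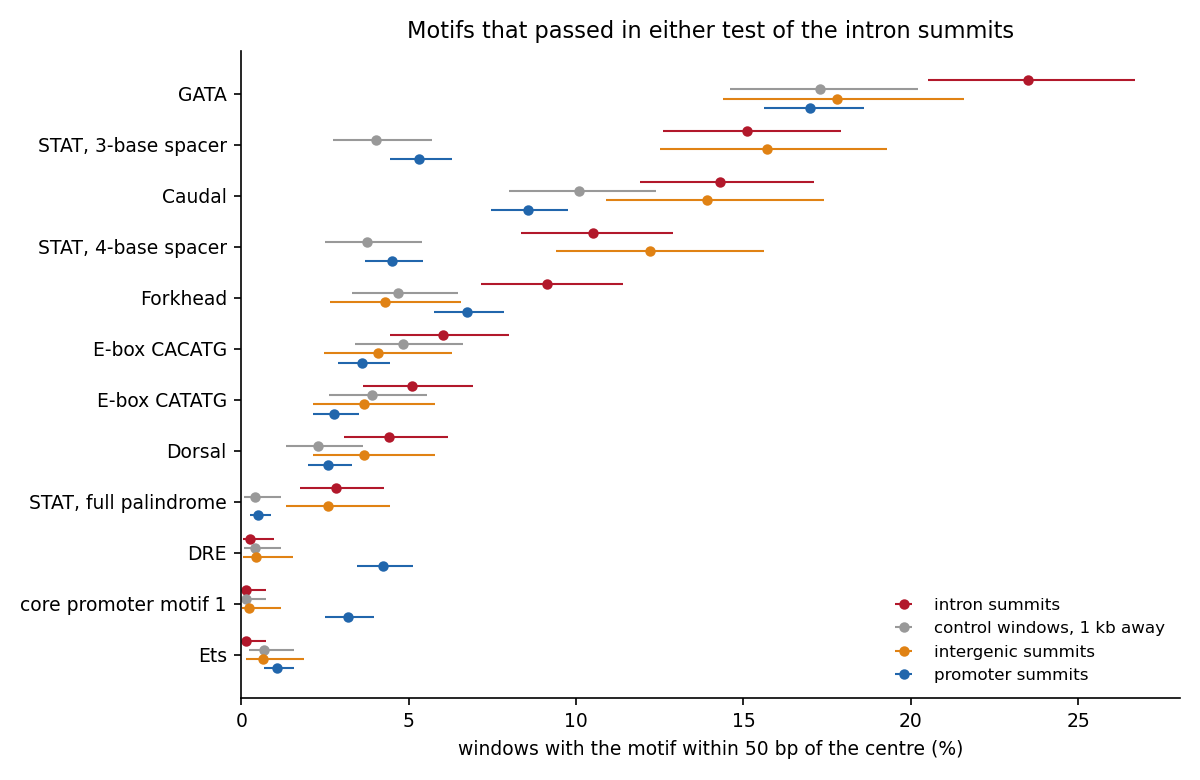
Percentage of windows (horizontal axis) with each motif within 50 bp of the centre, for intron summits (746), control windows 1 kb away (746), intergenic summits (466) and promoter summits (2358); bars are 95% exact binomial intervals. Intron and intergenic summits lie together for the STAT sites (15.1% and 15.7% for the 3-base spacer), and promoter summits stand apart for DRE and core promoter motif 1.

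Against promoter peaks, intron peaks held STAT sites more often. The classes are split by distance to a TSS, so the lower share of promoter elements given below follows from the split and is a description. The 3-base-spacer site was at 15.1% of intron and 5.30% of promoter summits (odds ratio 3.19, interval 2.41 to 4.21, adjusted p = 7.99e-15, Fisher's exact test). The 4-base-spacer site was at 10.5% of intron and 4.50% of promoter summits (odds ratio 2.48, 1.80 to 3.40, adjusted p = 2.44e-07, Fisher's exact test), and the palindrome at 2.82% and 0.509% (odds ratio 5.66, 2.64 to 12.7, adjusted p = 1.00e-05, Fisher's exact test). In all, 11 of 37 motifs (29.7%) passed, 8 higher and 3 lower in intron peaks. The other 5 higher ones were the motifs of GATA (odds ratio 1.49), of Caudal, a homeodomain factor of the posterior embryo (1.79), and Dorsal, the NF-kappa-B factor of the ventral embryo (1.74), and the E-boxes CATATG (1.89) and CACATG (1.72), and their adjusted p-values lay between 5.59e-05 and 0.0468 by the same test. In the stronger 50% of peaks none of these 5 passed, and within 25 bp of the summit GATA alone did. Dorsal also did not pass with either replicate left out.

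The 3 lower motifs were DRE, core promoter motif 1 and Ets, the first 2 of which are known from promoters. DRE, the TATCGATA element bound by DREF, was at 2 intron summits (0.268%) and 100 promoter summits (4.24%), an odds ratio of 0.0607 (0.00724 to 0.226, adjusted p = 6.93e-09, Fisher's exact test). Core promoter motif 1 was at 1 intron summit and 75 promoter summits (adjusted p = 2.67e-07, Fisher's exact test). The Ets motif ACCGGAA was at 1 intron summit and 25 promoter summits (adjusted p = 0.0391, Fisher's exact test), and it did not pass without replicate 3, in the stronger 50% of peaks or within 25 bp. DRE and core promoter motif 1 were no more frequent at intron summits than in control windows, with 2 and 1 summits against 3 and 1 control windows.

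Against intergenic peaks, the other class away from promoters, 0 of 37 motifs (0%) passed Fisher's exact test, 3 had an unadjusted p under 0.05, and the smallest adjusted p was 0.0514. The 3-base-spacer site was at 15.1% of intron and 15.7% of intergenic summits (odds ratio 0.961, interval 0.690 to 1.34). The 4-base-spacer site was at 10.5% and 12.2% (odds ratio 0.838, 0.574 to 1.23). The intervals exclude neither a modest excess nor a modest deficit. The Forkhead motif had the smallest p, with 9.12% of intron and 4.29% of intergenic summits (odds ratio 2.24, interval 1.32 to 3.94, adjusted p = 0.0514, Fisher's exact test).

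**Figure D2:**
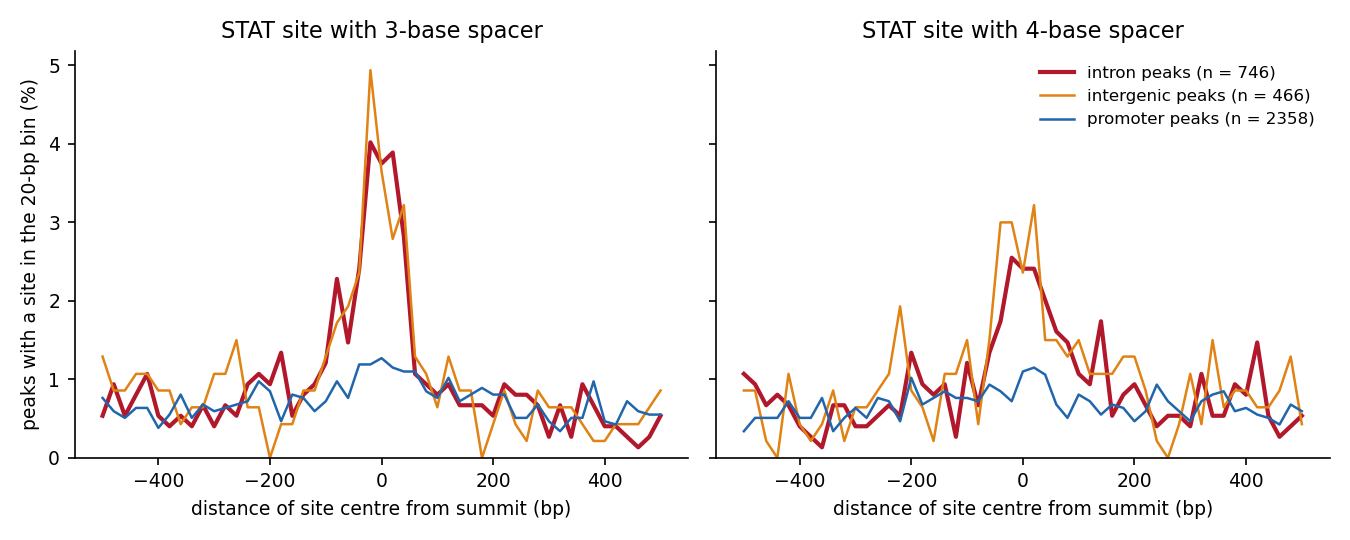
Percentage of peaks (vertical axis) with a STAT site whose centre falls in each 20-bp bin of distance from the summit (horizontal axis, bp), for intron, intergenic and promoter peaks, with the 3-base spacer on the left and the 4-base spacer on the right. For the 3-base spacer the central bin holds 3.75% of intron, 3.65% of intergenic and 1.27% of promoter peaks.

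The sites crowded around the summit. For the 3-base spacer, 3.75% of intron peaks had a site centre in the 20-bp bin at the summit, against a median of 0.536% in the 32 bins from 200 to 500 bp away on both sides (lowest 0.134%, highest 1.07%). For the 4-base spacer the central bin held 2.41%, and the far bins had a median of 0.536% (0.134% to 1.47%). Where a 3-base-spacer site lay within 50 bp, the median distance from the centre was 20 bp at intron summits and 22.5 bp in control windows, a measure that the window itself limits. Counting either spacer, 179 intron peaks (24.0%, 21.0 to 27.2) had a site, 12 of them both kinds, and 567 (76.0%) had neither. Only E2f1, tup, side-V and mtgo had a pair of 3-base-spacer sites under 1 summit. These 4 were named after their values were seen.

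Among the 117 3-base-spacer sites, the spacer was most often CAG or its reverse complement CTG (18 sites), which gives the palindrome TTCCAGGAA on one strand or the other. CAA or TTG followed with 16 sites, CAC or GTG with 13 and CGA or TCG with 12. In 21 sites (17.9%) a C followed TTC and a G preceded GAA, and in 64 (54.7%) only 1 of these bases was present. These are counts of the chosen pattern, with no comparison drawn from them.

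The share of intron peaks with a 3-base-spacer site fell with rank. In 5 equal classes of the 746 peaks by signal, from the strongest to the weakest, it was 25.3%, 18.1%, 10.7%, 12.8% and 8.72%, with exact intervals of 18.6 to 33.1 in the strongest and 4.73 to 14.5 in the weakest class. The 4-base-spacer site showed no such order within these classes, with 9.33%, 12.1%, 12.1%, 6.71% and 12.1%. The pooled peak list, which has 30000 peaks and includes the 3603 of the IDR-thresholded list as its strongest, extends this to 9479 intron peaks. There the 3-base-spacer share was 23.2% in ranks 1 to 500, 24.8% in ranks 501 to 1000, 11.7% in ranks 1001 to 2000 and 11.1% in ranks 2001 to 3603. Below the list it was 8.66% to rank 7500, 5.58% to rank 15000 and 3.95% to rank 30000, beside 3.08% of all intron windows. The 4-base-spacer share was 9.6%, 12.9%, 11.2% and 9.55% in the same 4 classes within the list. Below the list it was also lower, with 5.09%, 4.98% and 3.77%, beside 3.16% of all intron windows. These weak peaks reach down to a −log10 q-value of 0.396, well below 3.62, the lowest in the IDR-thresholded list. No test was made over the rank classes.

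**Figure D3:**
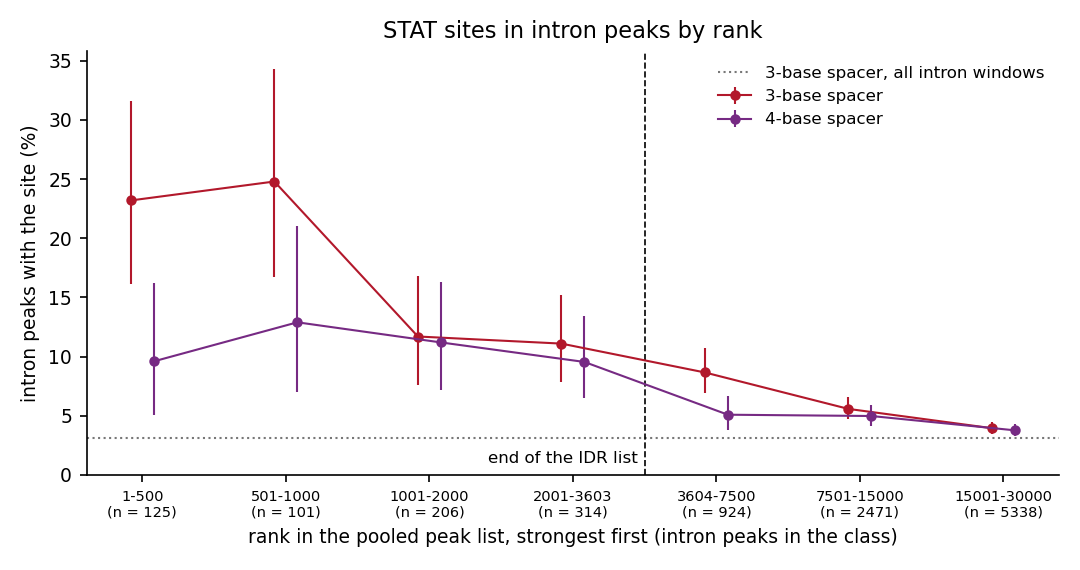
Percentage of intron peaks with a 3-base-spacer or a 4-base-spacer STAT site within 50 bp of the summit (vertical axis) by rank in the pooled list (horizontal axis, strongest at the left, number of intron peaks below each class); bars are 95% exact binomial intervals, the dashed line is the end of the IDR-thresholded list and the dotted line the 3.08% of all intron windows with a 3-base-spacer site. The 3-base-spacer share is above 20% in the first 1000 ranks and 3.95% in the last class.

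Intron peaks covered nearly the same range of signal as the other classes. The signal is the authors' peak-caller score, has no stated unit and is used here only to order peaks within a list. Its median was 164 in intron peaks (121 to 832), 167 in intergenic peaks (121 to 773) and 158 in promoter peaks (121 to 1085). The mean rank, where 1 is the strongest peak, was 1740.0 for intron and 1850.3 for promoter peaks, a difference of -110.4 (adjusted p = 0.0227, permutation test with 100000 resamples, two-sided, 2 comparisons). The adjusted p of this difference lay between 0.0585 and 0.197 under each of the 4 alternatives tried. Against intergenic peaks, with a mean rank of 1672, the difference was 67.5 (adjusted p = 0.283, permutation test). Of the 746, 23 were among the 100 strongest peaks and 125 among the 500 strongest.

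The strongest intron peak lay in ush, which encodes a cofactor of GATA factors. It had rank 5, signal 832, rank 21 in replicate 1 and rank 3 in replicate 3, and lay 1393 bp from the nearest TSS, that of cbt. No STAT site lay within 50 bp of this summit. CG5953 followed with rank 12 (45 in replicate 1 and 6 in replicate 3) and held TTCTAAGAA 7 bp from its summit. Then came CG11050 (rank 17), shn (21), a zinc-finger factor of the Dpp pathway, CG1677 (24), and Trl (34), the gene of the GAGA factor. The 20 strongest also included Gug (38), an Atrophin corepressor gene, olf413 (48), FER (50), a tyrosine kinase gene, CG32772 (55), tnc (60), for (61), a cGMP-dependent kinase gene, and simj (62), a subunit of the NuRD complex. Next were tkv (64), the type I Dpp receptor, CG10283 (66), Dtg (72), RhoU (80), dally (81), a glypican gene, tara (82) and MYPT-75D (94), a myosin phosphatase subunit gene. Of the 20, 9 held a 3- or 4-base-spacer site, and ranks in the replicates ran from 21 to 162 in replicate 1 and from 3 to 128 in replicate 3.

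Nearly all intron peaks were found in both replicate lists, and how many were strong in both depended on the limit set. Of 746, 740 overlapped a peak in both replicate lists by at least 1 bp, and 506 (67.8%, 64.3 to 71.2) overlapped one of the 3603 strongest peaks of both. With 0.5 times as many strongest peaks the share was 36.6%, and with double it was 95.6%. At 3603 peaks the share was 68.7% for intergenic and 65.1% for promoter peaks. The odds ratio was 1.13 against promoter peaks (interval 0.946 to 1.35, adjusted p = 0.368) and 0.962 against intergenic peaks (0.744 to 1.24, adjusted p = 0.80; Fisher's exact tests, 2 comparisons). Against promoter peaks the test did pass under 3 of 5 other settings, with odds ratios of 1.24 to 1.66. The Spearman correlation between replicate ranks was 0.546 over intron peaks, 0.532 over intergenic and 0.410 over promoter peaks. It is a description across peaks that share their libraries. Since the list was chosen by the pooled signal of these same replicates, none of this is independent evidence of reproducibility, and 86 intron peaks shared their replicate 1 peak, and 85 their replicate 3 peak, with another peak of the list (3 and 2 of them with a promoter peak). Without peaks of any class that share a replicate peak, 656 intron peaks remained and the share was 64.6%, beside 65.8% for intergenic and 61.3% for promoter peaks.

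Peaks that were strong in 1 replicate only leaned differently in introns and at promoters. Among intron peaks 136 were among the strongest of replicate 3 only and 90 of replicate 1 only, a share of 60.2% for replicate 3. Among promoter peaks the numbers were 327 and 440 (42.6%), and among intergenic peaks 63 and 70 (47.4%). The odds ratio was 2.03 against promoter peaks (interval 1.49 to 2.79, adjusted p = 7.08e-06) and 1.68 against intergenic peaks (1.06 to 2.65, adjusted p = 0.021; Fisher's exact tests, a comparison chosen after seeing the data). Of 5 other settings, the test against intergenic peaks did not pass under 3 and that against promoter peaks under 1. Without peaks that share a replicate peak the odds ratios were 2.07 against promoter peaks (adjusted p = 6.68e-06) and 1.74 against intergenic peaks (adjusted p = 0.0144, Fisher's exact tests). In the replicate lists themselves, introns held 804 of the 3603 strongest peaks of replicate 3 (22.3%, 21.0 to 23.7). In replicate 1 they held 721 of the 3586 on the arms (20.1%, 18.8 to 21.5). Intergenic peaks also had a larger share in replicate 3 (13.9%) than in replicate 1 (12.4%), while promoter peaks had 62.9% and 66.6%. With 1 library per replicate number, the replicate and its library cannot be told apart.

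**Figure D4:**
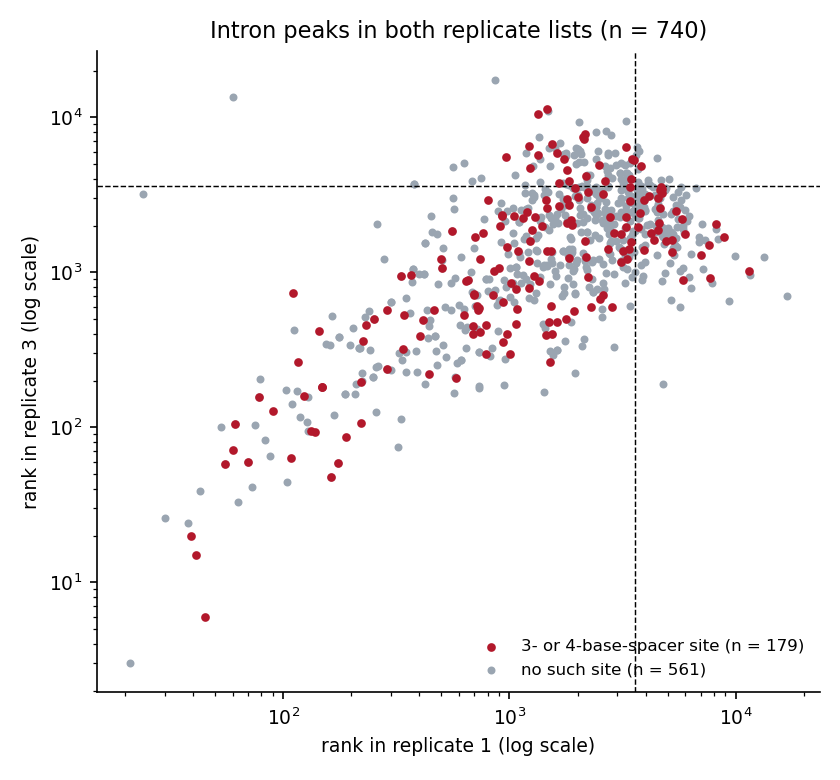
Rank in replicate 1 (horizontal axis) and in replicate 3 (vertical axis), both on log scales, of the 740 intron peaks found in both lists, with peaks that hold a 3- or 4-base-spacer site in red; dashed lines mark rank 3603. Most points lie left of and below these lines, 506 of all 746 intron peaks by count.

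Some intron peaks ranked far apart in the replicates. The peak of upd3, a ligand gene, ranked 1016 in replicate 3 and 11479 in replicate 1, and that of ken, a repressor gene, ranked 598 and 5691. The palindrome-bearing peak of CG42342 ranked 10523 in replicate 3 and 1332 in replicate 1. For Stat92E, the pathway's own factor, the intron peak ranked 187 in replicate 3 and 949 in replicate 1.

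Intron peaks were denser near transcription starts, and a larger share of them than of the sequence open to the rule lay in first introns. A first intron of at least 1 transcript held 493 summits (66.1%, 62.6 to 69.5), although first introns make up 40.5% of the 48640237 open bases. The rule shifts this share by itself, since first introns are near starts, so it was also taken by distance to the nearest TSS, a split added after seeing the data. First introns held 81.7% of the 191 summits 1 to 2 kb away (63.1% of open bases there), 69.1% of the 249 at 2 to 5 kb (52.7%), 62.8% of the 164 at 5 to 10 kb (44.2%), 46.0% of the 100 at 10 to 20 kb (33.8%) and 38.1% of the 42 beyond 20 kb (14.9%). The exact interval of the peaks lay above the base share in each of the 5 classes. The density fell over these classes, with 30, 20.6, 15.3, 11.3 and 3.95 peaks per Mb of open intron sequence.

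The nearest TSS belonged to the host gene for 607 peaks (81.4%) and to another gene for 139 (18.6%). The introns had a median length of 12052 bp (140.0 to 126467). Just inside the 1 kb limit were peaks of CtsL1 (1001 bp, rank 3541), verm (1008 bp, rank 1764), shn (1009 bp, rank 21), wake (1017 bp, rank 1678) and CG11050 (1023 bp, rank 17). Just outside it were peaks in chif (985 bp, rank 22), magu (986 bp, rank 685), Cyt-c-p (988 bp, rank 728), Svil (989 bp, rank 683) and Ack (994 bp, rank 390), which count as promoter peaks.

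By chromosome, intron peaks were sparse on X and nearly lacking on arm 4. X held 110 (14.7%, 12.3 to 17.5) of the intron peaks and 18.3% of open intron bases, a density of 12.4 per Mb. Densities were 13.6 on 3R, 15.5 on 2R, 17.8 on 2L and 19.0 on 3L, so 3R was close to X. Arm 4 had 1 intron peak, in dati, and 1.08% of open bases. In the whole pooled list the density of intron peaks on X (196 per Mb) lay between those on 3R (177) and 3L (216).

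Annotated transposable elements held 1 summit (0.134%, 0.00339 to 0.745), in a roo element of grh, although they make up 7.18% of open intron bases. Exons of noncoding genes held 24 summits (3.22%, 2.07 to 4.75) and 0.968% of the bases, and 35 summits (4.69%) lay within 1 kb of the start of a noncoding RNA gene, against 1.96% of the bases. These starts were not used by the rule, which considered protein-coding genes. Whether reads could be placed equally well in these kinds of sequence was not tested.

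Neighbouring summits lay within 5 kb of each other in 172 pairs and within 500 bp in 44. Of these 44 pairs, 35 were 200 to 250 bp apart and 5 were 199 bp apart, which was the smallest gap, while none lay between 401 and 500 bp. Counting summits within 500 bp once left 702 regions. Whether such close pairs are separate binding sites or a property of the peak caller was not tested.

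The 746 peaks lay in introns of 462 genes, 6.59% of the 7012 protein-coding genes with any intron sequence open to the rule. There was 1 peak in 290 of them, 172 had at least 2, 66 at least 3 and 32 at least 4. Every protein-coding gene around a summit counts as a host here, and 27 peaks lay in more than 1 host, such as Hr3 and the overlapping CG12912. The 172 genes held 469 peaks (62.9%). By length of open sequence, 327 of the 462 hosts were in the 20% of genes with the most open sequence, of which 23.3% were hosts, and none were in the 40% with the least. The density was 28.1 peaks per Mb in the next-longest 20% and 14 in the longest 20%.

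Genes with an intron peak often had a promoter peak as well. Of the 462 hosts, 286 (61.9%) had a promoter peak at a TSS of their own, against 28.0% of the 7012 genes. Within the 20% of genes with the longest open sequence the shares were 63.6% of hosts and 33% of all genes, and within the next-longest 20% they were 58.8% and 30.8%. No test was made, because neighbouring peaks of a gene are not independent.

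The gene with the most intron peaks was dlp, which encodes a glypican that binds Wnt, Hedgehog and Unpaired ligands at the cell surface. Its 9 peaks spread over 30933 bp, the strongest with rank 175 (333 in replicate 1 and 113 in replicate 3), and 1 of them held a STAT site. The other genes with many peaks include several signalling components. The Dpp receptor gene tkv, the kinase gene Raf and the Notch co-activator gene mam had 7 peaks each. The remainder of the first 10 had 6 each: ush, shn, the repressor gene sbb, the nuclear receptor gene Hr4, Lrch, and nkd, a feedback inhibitor of Wingless signalling. The 6 peaks of Lrch lay within 3713 bp, 617 per Mb of its open sequence. The strongest of them, rank 419, ranked 477 in replicate 1 and overlapped no peak in the list of replicate 3. The genes nmo and pyd also had 6.

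**Figure D5:**
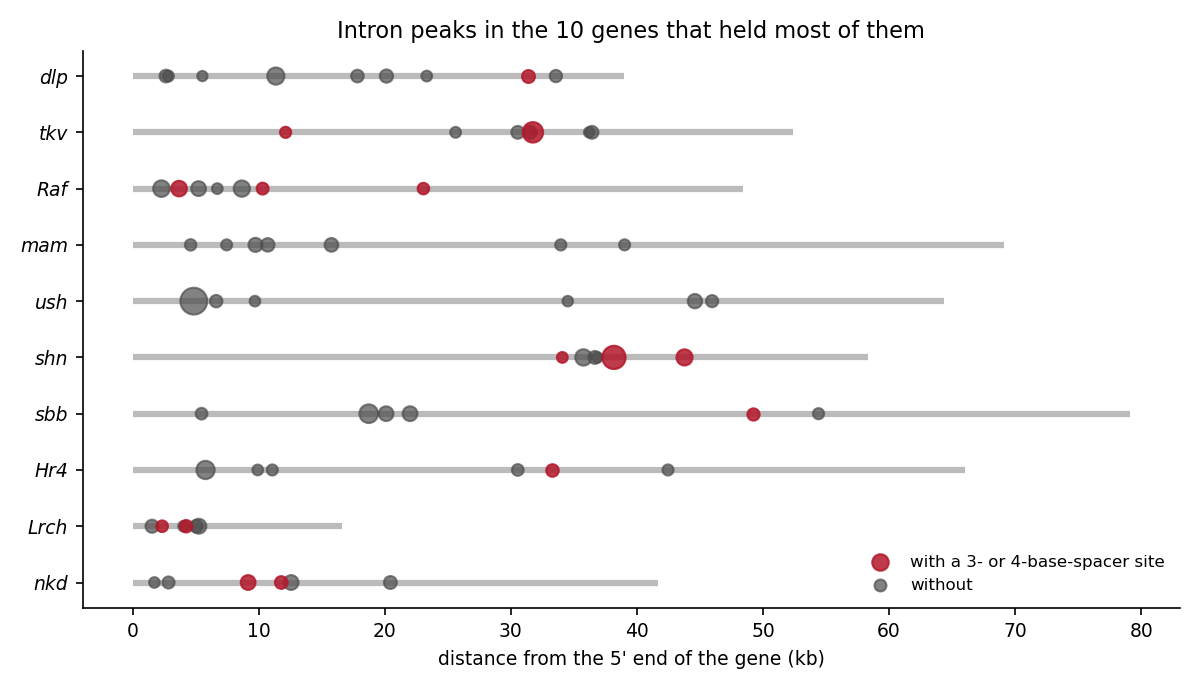
Positions of intron peak summits along the 10 genes with most of them, as the distance from the 5′ end of the gene (horizontal axis, kb); grey bars are the genes, circle area follows the signal score, and red circles hold a 3- or 4-base-spacer site within 50 bp of the summit. The 9 peaks of dlp spread over most of the gene, while the 6 of Lrch lie together near its 5′ end and mam and ush have no red circle.

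Of the 66 peaks in these 10 genes, 15 (22.7%) had a 3- or 4-base-spacer site, beside 24.0% of all intron peaks. Raf had a site at 3 of 7 peaks, shn at 3 of 6, tkv at 2 of 7, Lrch and nkd at 2 of 6, and dlp, sbb and Hr4 at 1, while mam (7 peaks) and ush (6) had none. The tkv peak of rank 64 held the 4-base-spacer site shown above and ranked 70 in replicate 1 and 60 in replicate 3. The next tkv peak, rank 960, lay within the same peak of each replicate.

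Beside the 8 hosts shown above and CG42342, the full palindrome was under intron peaks of fend, pcs, msn, ds, an atypical cadherin gene, rols, dally, nkd (rank 1177), Gp150, CG33158, baz, a polarity gene, kmr and psq. These 21 peaks ranged from rank 80 in RhoU to rank 3268 in psq. The melt peak, with rank 108, ranked 138 in replicate 1 and 93 in replicate 3, and melt encodes a PH-domain protein of insulin and growth signalling. The 2 peaks with the palindrome that ranked lowest, in kmr (3201) and psq, had ranks of 4622 and 8898 in replicate 1 and of 3403 and 1684 in replicate 3.

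Of 12 JAK/STAT components with open intron sequence, 6 had an intron peak (50%), beside 6.59% of all genes and 23.3% of the 20% with the longest open sequence. The share was also 50% in the list of the Dpp pathway, and it was 56.2% in that of tracheal and posterior spiracle genes. The component list was drawn up with results of these data known, so its count is a description. Among ligands, upd3 had 1 peak (rank 3506). The receptor gene dome had 1 (rank 1880), in its first intron and 1979 bp from its TSS. This peak ranked 3381 in replicate 1 and 1412 in replicate 3. Of the inhibitors, the phosphatase gene Ptp61F had 3 (ranks 303, 1326 and 3501), and the peak of rank 1326 also lay in an intron of ru.

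Socs36E, the feedback inhibitor, had 5 intron peaks, the most of any component, all in its first intron of 9459 bp. They ranked 428, 493, 578, 983 and 1005. Their ranks in the same order were 1004, 259, 1552, 1279 and 1528 in replicate 1 and 296, 2043, 294, 944 and 603 in replicate 3, so the strongest intron peak differed between the replicates. Of the 5, those of ranks 428, 983 and 1005 held a 3- or 4-base-spacer site, and the last held the palindrome. Stat92E itself had 1 (rank 380), 7834 bp from its nearest TSS and without a 3- or 4-base-spacer site, and the repressor gene ken had 1 (rank 1522). Of the 12 peaks of the components, 5 (41.7%) held such a site, 3 of them in Socs36E, beside 24.0% of all intron peaks. No test was made of this share.

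Of 24 described JAK/STAT targets with open intron sequence, 14 (58.3%) hosted 29 intron peaks, beside the same 6.59% of all genes and 23.3% of the longest 20%. The target list was likewise drawn up with results of these data known, so its count is a description. These targets had a median of 11174 bp of open sequence, against 621 bp over all genes. Of the 29 peaks, 10 (34.5%) held a site, beside 24.0% of all intron peaks. Neither this share nor the 41.7% of the components stood apart from those of other lists, which rest on few peaks. The share was 50% of 10 peaks in the Fat and Hippo list and 44.4% of 9 in epithelial polarity and junction genes. It was 37.5% of 16 in the Wingless list, 35% of 20 in the Dpp list, 9.09% of 11 in the Notch list and 0% of 10 in hemocyte genes. The strongest lay in ImpL2, which encodes a secreted insulin-binding protein and had 4 peaks (ranks 105, 231, 392 and 561), followed by Diap1, the inhibitor of apoptosis, with 3 (162, 213 and 1137). The 3 Diap1 peaks fell within 1 peak of each replicate (rank 148 in replicate 1 and 183 in replicate 3), and the ImpL2 peaks of ranks 105 and 561 likewise. Then came crb (rank 355), an apical polarity gene, zfh1 (826), pnt (1099), cv-c (1214), Antp (1257), apt (1833), eya (3033) and trh (3070), a tracheal selector gene. The remaining hosts of this list, Stat92E, Socs36E, ken and dome, are also components and count in both lists.

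Other signalling pathways also held intron peaks, and the JAK/STAT lists did not stand alone. In the Dpp pathway 6 of 12 genes were hosts with 20 peaks, 123 per Mb of open sequence, led by shn, tkv and sog, an extracellular antagonist (rank 420). In the EGFR and FGF pathways 8 of 22 were hosts, led by Egfr, the receptor (5 peaks, rank 188), aop, an Ets repressor (rank 199), and S, the trafficking factor of its ligands (rank 229). In the Notch pathway 4 of 11 were hosts, led by neur, a ubiquitin ligase gene (rank 183), mam (618) and the receptor gene N (624). In the Wingless pathway 5 of 16 were, led by the receptor gene fz (rank 107), nkd (440) and the co-receptor gene arr (784). In the Hedgehog pathway 2 of 10 were, ptc (rank 1484) and boi (2246), and in the Fat and Hippo pathway 4 of 14, led by kibra (rank 556), hth (577) and ds (855).

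Among genes of embryonic patterning, 0 of 15 gap, pair-rule and segment polarity genes with open intron sequence hosted an intron peak, beside 6.59% of all genes. They have 91354 open bases in all and a median of 2139, against a median of 621 over all genes, and all intron peaks came to 15.3 per Mb. Of 12 homeotic and cofactor genes 5 were hosts, led by hth (rank 577), Antp and Abd-B (rank 3265). Of 14 dorsal-ventral genes 3 were, ush, tup (rank 352) and sim (rank 2270). Of 16 tracheal and posterior spiracle genes 9 were, led by grn (rank 296), crb and hth. Of 9 gut genes bowl alone was (rank 457). The 12 core housekeeping genes with open sequence had 0, in 6663 open bases.

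Among tissue and cell-biological lists, axon guidance genes had the most peaks, 33 in 13 of 32 genes, led by dally (rank 81), Ten-m (140) and dlp, over 1551301 open bases (21.3 per Mb). Ecdysone and nuclear receptor genes had 23 peaks in 7 of 18, led by Hr3 (rank 113), Hr4 (127) and Eip74EF (293). Mesoderm and muscle genes had 11 in 5 of 22, led by mbc (rank 200), kirre (488) and zfh1. Insulin and growth genes had 10 in 3 of 15, which were ImpL2, the insulin receptor gene InR (rank 156) and sima (596). Hemocyte genes had 10 in 4 of 17, led by ush, zfh1 and Pvf3 (rank 943), none with a site.

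Neural fate genes had 8 in 3 of 13, which were grh (rank 109), brat (241) and gcm2 (2618). Epithelial polarity and junction genes had 9 in 5 of 19, led by cno (rank 297), crb and cora (1163). Cell death and cell cycle genes had 5 in 2 of 16, E2f1 and Diap1, of which 3 held a site. In 21 of the 23 lists the share of hosts was above the 6.59% of all genes, and the lists were not compared with genes of equal intron length.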

How the data were processed

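Stat92E-GFP ChIP-seq was analysed from peak lists of 2 biological replicates of 1 group, on genome build dm6 per the labels. According to the deposited file lists, the authors called peaks for each replicate against a shared control and for both replicates pooled, and thresholded the pooled list by IDR. The deposited signal value is a peak score that the authors' caller gave, with no stated unit. The lowest deposited −log10 q-value was 3.62 both in ranks 1 to 500 and in ranks 2001 to 3603, and it was not used to rank peaks. The deposited summit offset gave the summit. Neither aligner nor peak caller, nor the cut-off on IDR, is given in the sources used here. Read depth is unknown, and intervals cover counting error only.

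Peaks were classed with the Ensembl annotation BDGP6.54.115, with 13945 protein-coding genes on the arms. Sequence came from the RefSeq copy of Release 6, and 0 peaks ended beyond an arm. The IDR-thresholded list equalled the 3603 strongest pooled peaks, and 2 peaks on the mitochondrial chromosome were left out. Where a summit lay in several genes, the shortest set the control side. Motifs were searched on both strands within 50 bp of the summit. They were TTC and GAA at spacers of 0 to 8 bases, the palindrome TTCCNGGAA and the reversed GAANNNTTC. Other factors were Zelda (CAGGTAG), Trl (GAGAGAG), DRE (TATCGATA), Caudal (TTTATG), TEAD (CATTCC), AP-1 (TGANTCA), Ets (ACCGGAA), Bicoid (TAATCC), Snail (CAGGTG), homeodomain (TAATTA), bHLH-PAS (TACGTG), Tinman (CACTTGA) and POU (ATGCAAAT). The E-boxes were CACGTG, then also CAGCTG, then also CATATG and lastly CACATG, and a CA repeat was CACACACA. Patterns with a choice of base were GATA and Forkhead as given above, core promoter motif 1 (by name only), Su(H) (C or T, then GTG, a purine and GAA), Dorsal (GG, a purine, 3 weak bases, which are A or T, and CC), Runx (ACC, a purine, then CA), Grainyhead (AC, a pyrimidine, then GGTT) and Sox (ACAA, a weak base, then G). Patterns overlap: TTCCNGGAA is contained in the 3-base-spacer site.

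Tests were exact McNemar, Fisher's exact and permutation tests with Benjamini-Hochberg adjustment at 0.05, run in Python 3.11.15 with numpy 2.4.6, scipy 1.17.1 and pandas 2.3.3, and tested on simulated data first. The 23 gene lists held 421 symbols, of which 398 matched; the result of 1 list is not reported here. Named genes were hosts of the 20 strongest intron peaks, the 10 genes with most intron peaks, hosts of a peak with TTCCNGGAA, JAK/STAT components and targets, and up to 3 hosts of each other list; sequences were printed for such peaks. Genes at the 1 kb limit, and side-V, mtgo, nmo, pyd, dati, ru and cbt, were named outside this rule after their values were seen. The members and lists were chosen with earlier results of these data known. Alternatives changed the window, the control, the peak set, the TSS distance, the replicate and the overlap.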

Additional observations from a re-analysis of the deposited data

Results flagged for a closer look

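The lean of 1-replicate peaks differed between classes. Among peaks strong in a single replicate, 136 intron peaks were strong in replicate 3 only and 90 in replicate 1 only, against 327 and 440 promoter peaks, an odds ratio of 2.03 (adjusted p = 7.08e-06, Fisher's exact test). This difference between the 2 classes was tested after it was seen in the data.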

How the results depend on the processing

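Of 128 alternative values of the main results, 99 kept their direction and side of the threshold or, where no test was made, stayed within 1.5 times the main count or within the 95% exact interval of the main share. Within that tolerance, intron peaks numbered 555 and their hosts 344 at 2 kb from a TSS. Of the rest, 6 changed direction, all in comparisons with intergenic peaks that passed under no setting. For the 3-base-spacer site these odds ratios were 1.12 in the stronger 50%, 1.02 at 2 kb from a TSS, 1.15 within 25 bp and 1.01 with either replicate left out, and for the share strong in both replicates 1.12 with 50% reciprocal overlap. The STAT 3- and 4-base-spacer calls against control windows and promoter peaks passed under every alternative run, and the comparison with intergenic peaks passed under none. The alternatives for the palindrome, GATA and Forkhead motifs and for the lean between replicates, those without peaks that share a replicate peak, and 4 of those for the number of motifs against control windows, were chosen after seeing the data.

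The number of motifs that passed against control windows was 3 to 6 when the peak list of 1 replicate was used alone, 3 at 2 kb from a TSS, 8 with control windows 2 kb away and 3 with control windows also in open intron sequence. Against promoter peaks it was 5 in the stronger 50%, 7 within 25 bp and 17 within 100 bp. The number of 7-mers that passed was 1 with either replicate alone and 4 within 100 bp. It was CACTGTA with replicate 1 alone and CCTGGAA, a part of the palindrome TTCCTGGAA, with replicate 3 alone. Neither was among those that passed within 100 bp. Host genes numbered 274 in the stronger 50%, and the first-intron share was 60.7% at 2 kb from a TSS.

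The difference in mean rank from promoter peaks was -97.8 with close summits counted once, -74.3 at 2 kb from a TSS, and between -82.2 and -76.1 with 1 replicate left out, and none of these passed. The odds ratio for being among the strongest of both replicates, against promoter peaks, passed at 1.26 with summits within 100 bp, 1.24 with 0.5 times as many strongest peaks and 1.66 with double. The lean towards replicate 3 was 2.17 with double the strongest peaks against both promoter and intergenic peaks, and did not pass. Against intergenic peaks it was 1.47 with summits within 100 bp and 1.36 with 0.5 times as many, which did not pass either. The palindrome lost its call within 25 bp, with a ratio of 5.5 of summit to control windows, beside 7 in the main setting (adjusted p = 0.166, exact McNemar test). Causes were not tested. No paired analysis was possible because the study has 1 group of samples, and the pairing in the McNemar tests is of summits with control windows.

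The main limits are these. Read depth is unknown, 2 replicates of whole embryos support the list, and peaks are not biological replicates, so p-values describe this set of peaks. The signal has no stated unit, and replicates entered the pooled list that chose the peaks. Sequence patterns are short matches, not measured binding sites, and a host gene is the gene around a summit, not a target shown to respond.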
